A study of Mus musculus with 4 samples.

Results

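Wnt2 and 9 other genes, grouped here as genes of mouse lung fibroblasts, were followed in CD11b+Ly6g+ cells, the MDSCs (myeloid-derived suppressor cells) of the PMN (premetastatic niche) study. The name of the group was not tested, and not every member is restricted to fibroblasts. The 10 genes are Wnt2, Tcf21, Pdgfra, Pdgfrb, Dcn, Lum, Inmt, Mfap4, Gpx3 and Npnt, found by symbol among the 54532 genes counted. The set was chosen by a difference already seen in these libraries, a level of Wnt2 about 10-fold or more lower with TP5 and with sFD17 than in control. The values of Wnt2 in those 2 comparisons are therefore a description and carry no test. Each of the 10 genes had at least 10 counts in 1 library, a minimum that 16369 genes met.

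C57BL/6 mice aged 6 to 8 weeks received MCM, medium conditioned by B16F10 mouse melanoma cells, intraperitoneally at 300 μL per mouse for 10 days, and 100000 B16F10 cells by tail vein injection, given on day 7. The control group received no peptide, so MCM and tumor cells were common to all groups. The other groups received TP5, sFD17 or FR17 subcutaneously each day, at a dose of 40 μM/kg and starting on day 3. TP5 is free thymopentin, a thymic pentapeptide; FR17 joins TP5 to a carrier peptide, from which MMP2 frees a fragment that self-assembles in lung tissue; sFD17 yields the same fragment but holds a scrambled pentapeptide. Lungs were taken on day 10 and digested, and CD11b+Ly6g+ cells were sorted and pooled from 10 to 12 mice into 1 library per group. With 1 library per group no difference has a replicate check and no p-value was computed. All intervals given cover the counting error of reads at a level of 95%, and neither the spread between mice nor that between sorts.

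Lung fibroblasts build and renew the collagen and elastic fiber matrix around the alveoli and airways. They also send signals to the epithelium, among which the secreted ligand Wnt2 acts through Frizzled receptors and the coreceptors Lrp5 and Lrp6 to stabilize β-catenin. In the embryo, Wnt2 and the related Wnt2b from the mesenchyme act together in specifying the lung. Tcf21 is a transcription factor of the lung mesenchyme, Pdgfra and Pdgfrb are the receptors of the platelet-derived growth factors, and the products of Dcn, Lum, Mfap4 and Npnt are secreted into the matrix. Fibroblasts carry neither CD11b nor Ly6g, so they are not a population that this sort selects.

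The sequence before the start of the gene is shown for Wnt2, the gene with the lowest ratio to control, and for Tcf21 and Pdgfra, whose ratios in TP5 were the next lowest. RefSeq windows on GRCm38.p6 were found for 6 of the 10 genes, with 2 for Npnt, and not for Dcn, Lum, Mfap4 or Pdgfrb. Letters inside the gene as annotated in the count table were left out. Capitals mark 2 searched motifs, the GC box GGGCGG and the E-box CANNTG, on either strand, and none of the motifs overlapped another in the sequences printed. The stretches are chr6:18030586-18030695 on the minus strand for Wnt2 (110 bases), chr10:22820175-22820393 on the minus strand for Tcf21 (219 bases) and chr5:75152001-75152250 on the plus strand for Pdgfra (250 bases), each written 5′ to 3′.
Wnt2: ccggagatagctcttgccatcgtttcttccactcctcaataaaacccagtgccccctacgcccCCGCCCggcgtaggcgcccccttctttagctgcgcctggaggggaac
Tcf21: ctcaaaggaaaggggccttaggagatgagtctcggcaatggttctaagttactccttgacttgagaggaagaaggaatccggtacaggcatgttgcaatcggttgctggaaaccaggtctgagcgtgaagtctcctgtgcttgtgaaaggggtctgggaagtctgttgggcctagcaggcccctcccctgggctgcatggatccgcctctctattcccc
Pdgfra: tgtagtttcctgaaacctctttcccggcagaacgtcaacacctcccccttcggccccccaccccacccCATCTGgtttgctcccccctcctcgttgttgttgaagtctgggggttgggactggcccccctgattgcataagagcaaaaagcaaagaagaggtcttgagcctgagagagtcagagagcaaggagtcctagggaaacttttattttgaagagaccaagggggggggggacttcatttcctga
The 250 bases before the RefSeq start were searched in all 32851 windows. GGGCGG was found in 32.7% of them and once in that of Wnt2. CANNTG was found in 66.2% and once in that of Pdgfra. TATAAA was found in 12.4% and in none of these 3 windows, and the window of Tcf21 held none of the 3 motifs. A match of letters is a description of the window and shows no binding.

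The deposited values are whole read counts per gene, 15543071 to 19638228 per library. Levels are given as CPM, read counts per 1e6 reads, with library sizes multiplied by edgeR's TMM factors, which ran from 0.849 in sFD17 to 1.17 in FR17. A floor of 3 counts, at which a library below it was set for ranking and calls, corresponds to 0.131 to 0.227 CPM. The median log2 fold of all genes compared was 0.00 with TP5, −0.03 with sFD17 and 0.02 with FR17. Under library size alone it was 0.05, −0.24 and 0.27, so log2 folds near 0 in sFD17 and FR17 depend on the scaling.

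The 10 genes together took a small share of each library. Their summed counts were 2020 in control, 1051 with TP5, 903 with sFD17 and 3264 with FR17, or 120, 59.9, 68.4 and 142 CPM. They made up 0.0118% of all counts in control, 0.00612% with TP5, 0.00581% with sFD17 and 0.0166% with FR17. For comparison, 12 neutrophil markers such as S100a8, S100a9 and Ly6g took 3.30% to 3.78%. In bulk counts, fewer cells of a type and less RNA per cell cannot be told apart.

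Per kilobase of exon, the control library was led by Inmt, a methyltransferase of indole amines, with 16.7 RPKM, and by Gpx3, the secreted glutathione peroxidase, with 15 RPKM, whose counting intervals overlapped. Mfap4 followed at 6.75 RPKM and Dcn at 5.16, each apart from its neighbors in the order. Wnt2 was at place 5 with 1.63 RPKM (1.25 to 2.09), with an interval that overlapped that of Npnt at 1.26. Pdgfrb at 0.789, Lum at 0.750, Pdgfra at 0.514 and Tcf21 at 0.504 closed the order, and each of these overlapped the next. Wnt2 was at place 6 in FR17 with 1.43 RPKM, at place 9 in TP5 with 0.152 and at place 10 in sFD17 with 0.0672. The first 4 places were held by Inmt, Gpx3, Mfap4 and Dcn in every library.

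**Figure D1:**
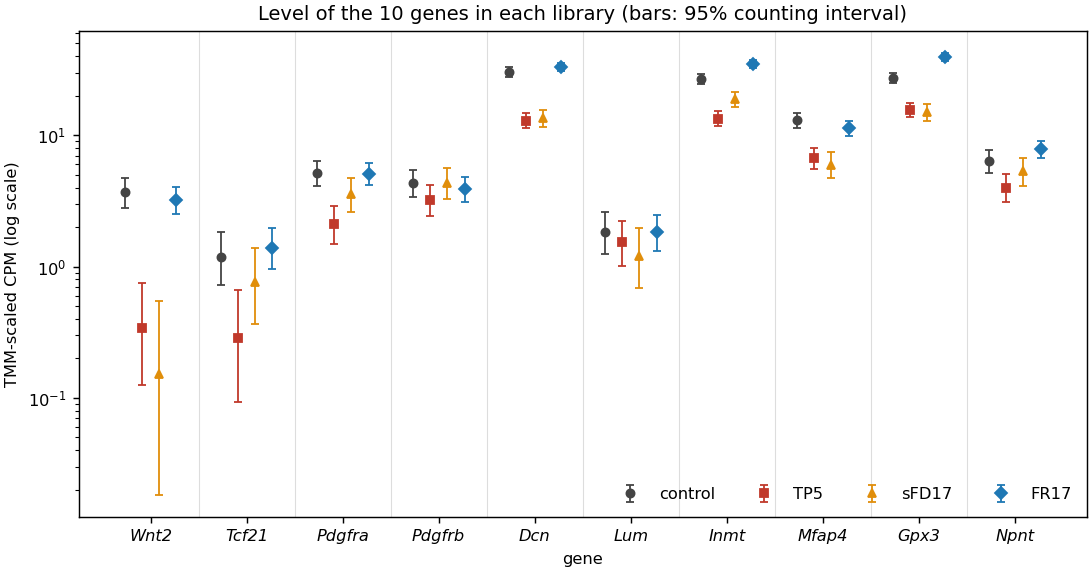
TMM-scaled CPM on a log axis for each of the 10 genes (x axis) in the control, TP5, sFD17 and FR17 libraries; each point is 1 library and each bar is its 95% Poisson interval of counting. Wnt2 is at 3.67 CPM in control and 3.22 in FR17, above 0.342 in TP5 and 0.152 in sFD17, and no other gene spans as wide a range.

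Wnt2 (ENSMUSG00000010797) lies on chromosome 6 from 17988940 to 18030585 on the minus strand, with 2255 exon bases that no other annotated exon shares. It had 62 counts in control, 6 with TP5, 2 with sFD17 and 74 with FR17. These correspond to 3.67 CPM (2.81 to 4.71) in control, 0.342 (0.126 to 0.745) with TP5, 0.152 (0.0184 to 0.547) with sFD17 and 3.22 (2.53 to 4.05) with FR17. Control and FR17 were high and their intervals overlapped, TP5 and sFD17 were low and theirs overlapped, and the high pair did not overlap the low pair. The log2 fold against control was −3.42 (−4.92 to −2.22) in TP5, a level 10.7-fold lower. In sFD17 it was −4.60 (−7.68 to −2.68), 24.2-fold lower on 2 counts. With these 2 counts set to the floor of 3, it was −4.01, or 16.1-fold lower. In FR17 it was −0.19 (−0.69 to 0.32).

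Ranked from the lowest fold, Wnt2 was at place 3 of 16247 genes in TP5 and at place 2 of 16204 in sFD17 with the floor, and at place 5311 of 16331 in FR17. The first 2 of these places follow from how the set was chosen. On either side of the 10-fold line of that choice, Wnt2 at 10.7-fold was the member inside it in TP5, and the next was Tcf21 at 4.15-fold lower. In sFD17 the next after Wnt2 was Dcn at 2.25-fold lower.

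Tcf21 (ENSMUSG00000045680, chromosome 10 from 22817281 to 22820174), the transcription factor, had 20 counts in control, 5 with TP5, 10 with sFD17 and 32 with FR17. The level was 1.18 CPM in control, 0.285 with TP5, 0.758 with sFD17 and 1.39 with FR17. TP5 was the low library, with an interval (0.0926 to 0.665) below that of control (0.723 to 1.83), while sFD17 overlapped both. Its log2 fold was −2.05 (−3.82 to −0.60) with TP5, −0.64 (−1.90 to 0.52) with sFD17 and 0.24 (−0.61 to 1.12) with FR17.

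The platelet-derived growth factor receptors come next. Where 4 values stand in a row they follow the order control, TP5, sFD17 and FR17, and where 3 log2 folds do, the order TP5, sFD17 and FR17, each against control. Pdgfra (ENSMUSG00000029231, chromosome 5 from 75152292 to 75198215) had 87 counts in control, 37 with TP5, 47 with sFD17 and 117 with FR17, or 5.15, 2.11, 3.56 and 5.10 CPM. TP5 was lowest, with an interval that overlapped that of sFD17, and control and FR17 overlapped. The log2 fold of Pdgfra was −1.29 (−1.88 to −0.72) with TP5, −0.53 (−1.08 to −0.0043) with sFD17 and −0.02 (−0.43 to 0.40) with FR17. Pdgfrb (ENSMUSG00000024620, chromosome 18 from 61045150 to 61085061), which also marks pericytes, had 73, 56, 57 and 89 counts in the same order, or 4.32, 3.19, 4.32 and 3.88 CPM. All 4 of its intervals overlapped. Its log2 fold was −0.44 (−0.97 to 0.09), 0.00 (−0.53 to 0.52) and −0.16 (−0.62 to 0.31).

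Dcn and Lum encode decorin and lumican, small leucine-rich proteoglycans that bind collagen fibrils, and are neighbors on chromosome 10 with a gap of 46984 bases. Dcn (ENSMUSG00000019929, 97479609 to 97518143) had 509 counts in control, 226 with TP5, 177 with sFD17 and 765 with FR17, or 30.1, 12.9, 13.4 and 33.3 CPM. TP5 and sFD17 were low and overlapped each other, and neither overlapped control or FR17. The log2 fold of Dcn was −1.23 (−1.46 to −1.0) with TP5, −1.17 (−1.42 to −0.92) with sFD17 and 0.15 (−0.02 to 0.31) with FR17. Lum (ENSMUSG00000036446, 97565128 to 97572703) had 31, 27, 16 and 42 counts, or 1.84, 1.54, 1.21 and 1.83 CPM, with overlapping intervals in all 4 libraries. Its log2 fold was −0.25 (−1.05 to 0.54), −0.60 (−1.57 to 0.32) and 0.00 (−0.71 to 0.71).

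The other matrix proteins were Mfap4, a glycoprotein of elastic microfibrils, and Npnt, nephronectin, a matrix ligand of integrins. Mfap4 (ENSMUSG00000042436, chromosome 11 from 61485431 to 61488900) had 219 counts in control, 117 with TP5, 79 with sFD17 and 259 with FR17, or 13.0, 6.67, 5.99 and 11.3 CPM. TP5 and sFD17 were the low libraries and did not overlap control or FR17. Its log2 fold was −0.96 (−1.30 to −0.63) with TP5, −1.12 (−1.5 to −0.74) with sFD17 and −0.20 (−0.47 to 0.07) with FR17. Of its 1922 exon bases, 89 are shared with Mapk7 on the opposite strand, a gene with 395 to 676 counts, and whether the counting used strand is not given in the sources used here. Npnt (ENSMUSG00000040998, chromosome 3 from 132881745 to 132950291) had 107, 70, 70 and 179 counts, or 6.33, 3.99, 5.30 and 7.80 CPM. Its log2 fold was −0.67 (−1.12 to −0.22), −0.26 (−0.71 to 0.19) and 0.30 (−0.05 to 0.66), so that TP5 alone had an interval below 0.

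Inmt and Gpx3, the enzymes of the set, were above control in FR17. Inmt (ENSMUSG00000003477, chromosome 6 from 55170626 to 55175043) had 452 counts in control, 234 with TP5, 248 with sFD17 and 803 with FR17, or 26.8, 13.3, 18.8 and 35.0 CPM. None of these 4 intervals overlapped another. The log2 fold of Inmt was −1.0 (−1.24 to −0.77) with TP5, −0.51 (−0.74 to −0.28) with sFD17 and 0.39 (0.22 to 0.56) with FR17. Gpx3 (ENSMUSG00000018339, chromosome 11 from 54902453 to 54910377) had 460, 273, 197 and 904 counts, or 27.2, 15.6, 14.9 and 39.4 CPM. TP5 and sFD17 overlapped each other and were lower than control, and FR17 was the highest. Its log2 fold was −0.81 (−1.03 to −0.59), −0.87 (−1.12 to −0.62) and 0.53 (0.37 to 0.70).

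A gene was counted as lower or higher when its level differed at least 2-fold from control. In TP5, 5 of the 10 genes were at least 2-fold lower, Wnt2, Tcf21, Pdgfra, Dcn and Inmt, against 6.01% of the 16247 genes compared. None was at least 2-fold higher, against 3.86%. All 10 log2 folds were below 0 and the median was −0.98. For 8 of the 10 genes the counting interval also lay below 0, against 18.9% of all genes compared, and for 7 of 9 without Wnt2. Inmt at 2.01-fold was just inside the line and Mfap4 at 1.94-fold just outside. Without Wnt2, whose value in TP5 the set was chosen by, 4 of 9 genes were at least 2-fold lower and the median was −0.96.

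In sFD17, 3 of 10 genes were at least 2-fold lower, Wnt2, Dcn and Mfap4, against 6.83% of 16204 genes, and 0 were at least 2-fold higher, against 6.2%. The median was −0.62, and the intervals of 6 genes lay below 0, or of 5 of 9 without Wnt2, against 22.3% of all genes. Without Wnt2, whose value here was also used in the choice, the count was 2 of 9 and the median −0.60. The ratio of Mfap4 at 2.17-fold was just inside the line and that of Gpx3 at 1.82-fold just outside. In FR17, 0 of 10 genes were at least 2-fold lower, against 4.54% of 16331 genes, and 0 were at least 2-fold higher, against 4.9%. There, 5 log2 folds were below 0 and 5 above, and the median was 0.07. The intervals of Inmt and Gpx3 lay above 0, 2 of 10 against 21.5% of all genes, a share near the background. Under library size alone all 10 were above 0 in FR17. The choice of Wnt2 used the TP5 and sFD17 comparisons, and the 3 comparisons share the control library.

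Genes with control counts between 20 and 509, the range of the 10 genes, numbered 8351. Of these, 5.38% were at least 2-fold lower with TP5, 7.42% with sFD17 and 3.90% with FR17. Intervals below 0 were held by 16% of them with TP5 and 25.9% with sFD17, and intervals above 0 by 25.7% with FR17. As a sum over the 10 genes, the ratio to control was 0.501 (0.465 to 0.540) with TP5, 0.572 (0.528 to 0.619) with sFD17 and 1.19 (1.12 to 1.26) with FR17. Without Wnt2 it was 0.514, 0.589 and 1.20.

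**Figure D2:**
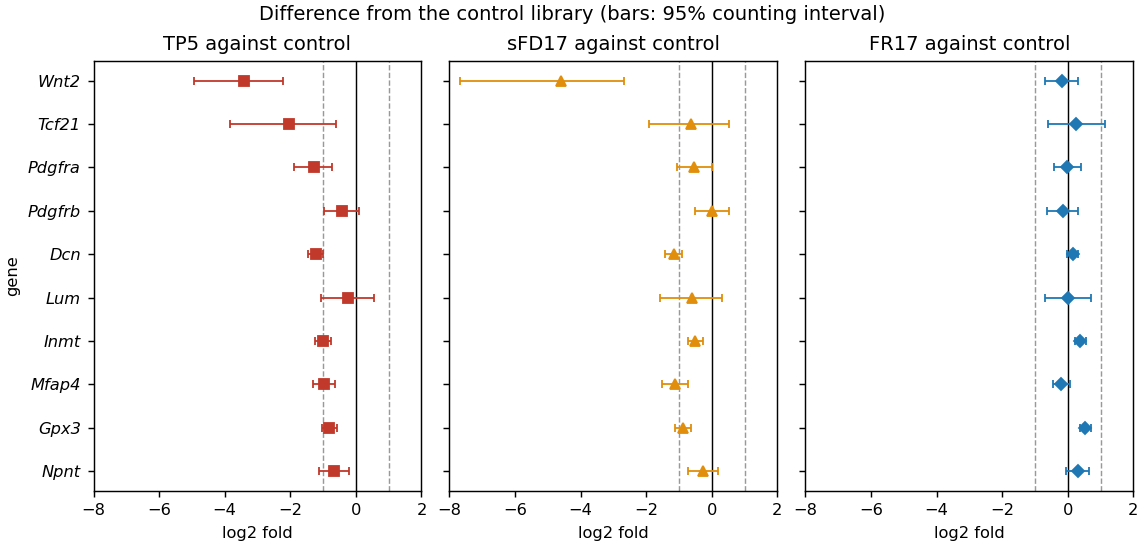
Log2 fold against control (x axis) of the 10 genes (y axis) in the TP5, sFD17 and FR17 libraries, with points for the ratio of TMM-scaled counts, bars for the 95% interval from both counts, a solid line at 0 and dashed lines at a 2-fold difference. In TP5 all 10 points lie below 0, in sFD17 Pdgfrb sits at 0.00 and Wnt2 at −4.60 on 2 counts, and in FR17 no point passes a dashed line.

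The peptides were given at the same dose on the same days, and their 3 pairs of libraries were compared directly. FR17 and TP5 hold the same pentapeptide, joined to the carrier in FR17 and free in TP5. Against TP5, 6 of 10 genes were at least 2-fold higher in FR17, with 8.19% of all genes so. The intervals of 8 genes lay above 0, 7 of 9 without Wnt2, against 20.1% of all genes. The low TP5 value of Wnt2 is one the set was chosen by, and without Wnt2 the count was 5 of 9. The median log2 difference was 1.31. Wnt2 differed by 3.24 (2.05 to 4.73), Tcf21 by 2.29 (0.92 to 4.01), Inmt by 1.39 (1.18 to 1.61), Dcn by 1.37 (1.16 to 1.59), Gpx3 by 1.34 (1.14 to 1.54) and Pdgfra by 1.27 (0.73 to 1.85). For Pdgfrb and Lum the interval held 0, from −0.22 to 0.79 and from −0.48 to 1.00.

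FR17 and sFD17 share the carrier and differ in the order of the pentapeptide's residues. Here 3 of 10 genes were at least 2-fold higher in FR17, against 12% of all genes. The intervals of 7 genes lay above 0, 6 of 9 without Wnt2, against 30.7% of all genes and 40.1% of those with control counts between 20 and 509. Wnt2 in sFD17 was again a value used in the choice, and without it the count was 2 of 9. Wnt2 differed by 4.41 (2.51 to 7.48) on 74 and 2 counts, Gpx3 by 1.40 (1.18 to 1.63) and Dcn by 1.31 (1.08 to 1.56). Pdgfrb was at −0.16 (−0.65 to 0.35). Between sFD17 and TP5, 1 of 10 genes was at least 2-fold higher in sFD17, against 7.74%, and 0 at least 2-fold lower with the floor, against 6.05%. That gene was Tcf21, at 1.41 with an interval from −0.27 to 3.31 that held 0. Pdgfra at 0.76 (0.10 to 1.42) and Inmt at 0.49 (0.23 to 0.76) had intervals above 0, as did 23.5% of all genes. Wnt2, with 2 against 6 counts, was at −1.17 (−4.52 to 1.31), so that a difference between these libraries was not detectable at this depth.

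Wnt2 was set beside the other 18 listed Wnt ligands. Of these, 7 had at least 10 counts in 1 library. For this list and those below, the counts past 2-fold stand beside the shares of all genes compared. At least 2-fold lower were 6.01% with TP5, 6.83% with sFD17 and 4.54% with FR17. At least 2-fold higher were 3.86%, 6.2% and 4.9%. In TP5, 2 of the 7 Wnt ligands were at least 2-fold lower and 3 at least 2-fold higher, in sFD17 0 and 3, and in FR17 0 and 1, with medians of −0.64, 0.53 and −0.13. The summed level was 2.01, 1.47 and 1.23 of control, opposite in sign to the median in TP5 and FR17. Wnt11, a ligand best known for signaling without β-catenin, had the most counts with 444 in control, 1037 with TP5, 500 with sFD17 and 791 with FR17. The level of Wnt11 was thus highest in TP5, where Wnt2 was low, with log2 folds of 1.17 (1.01 to 1.33), 0.53 (0.34 to 0.72) and 0.39 (0.22 to 0.56). Wnt3, Wnt3a and Wnt7a had 0 counts in every library, which allows up to the floor of 3 counts in each.

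Of 15 listed Wnt receptors and coreceptors, 11 were compared, and 3 were at least 2-fold lower with TP5, 2 with sFD17 and 1 with FR17, with 0 at least 2-fold higher. The median log2 folds were −0.56, −0.50 and 0.07, and the summed level was 0.867, 0.909 and 0.936 of control, which in FR17 lies opposite to the median. Ryk, a Wnt receptor with an inactive kinase domain, had 59, 49, 19 and 125 counts in control, TP5, sFD17 and FR17, with a log2 fold of −1.28 in sFD17. Fzd8, a Frizzled receptor, had 28, 13, 11 and 52 counts, with −1.16 in TP5. Genes switched on by β-catenin, 6 compared of 9, were in no case at least 2-fold different from control. Their medians were 0.01, −0.20 and 0.69, their summed level was 0.980, 0.894 and 1.57 of control, and all 6 were above 0 in FR17. Tcf7, a transcription factor of the pathway, gave the largest part of the sum with 142, 173, 89 and 340 counts (0.82 in FR17), and without it the sum was 0.840, 0.960 and 1.43 of control. Tcf7 and Lef1 are also T cell genes. Beside them, the T cell marker Cd3e had 31, 37, 25 and 153 counts, and the summed level of the lymphocyte markers was 1.52 of control in FR17; their part in these values was not tested. Also among the 6, Nkd1, a feedback inhibitor of the pathway, had 63, 34, 45 and 116 counts (−0.94 in TP5), and Lef1, a relative of Tcf7, 28, 29, 18 and 72 (0.92 in FR17). Of 9 secreted Wnt inhibitors 5 were compared, though 4 in TP5, with medians of −0.39, −0.15 and 0.46. None was at least 2-fold different in TP5, and 1 was higher in each of sFD17 and FR17. Sfrp1 had 40, 34, 21 and 75 counts (−0.57 in sFD17), and Dkk3 54, 40, 38 and 104 (0.50 in FR17).

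For the receptors Pdgfra and Pdgfrb, the 4 ligand genes were all compared and all below 0 in TP5 and sFD17, with medians of −0.54 and −0.57, and the median was 0.13 in FR17. Pdgfc, a ligand of the receptor encoded by Pdgfra, had 148 counts in control, 85 with TP5, 20 with sFD17 and 222 with FR17. It was the member of this list at least 2-fold lower, in sFD17, at −2.53 (−3.28 to −1.85). Pdgfa had 108, 90, 45 and 133 counts and −0.91 in sFD17. Beside Dcn and Lum, 5 of 8 other small leucine-rich proteoglycans were compared. In TP5, 3 were at least 2-fold lower, in sFD17 2, and in FR17 1, with medians of −1.07, −0.45 and 0.13. Ogn, osteoglycin, had 115, 57, 32 and 190 counts and a log2 fold of −1.07 in TP5 and −1.49 in sFD17. Prelp, another of the family, had 87, 43, 60 and 129 counts and −1.07 in TP5. Kera and Epyc, of the same family, had 0 counts. Beside Gpx3, 5 of 7 other glutathione peroxidases were compared, with medians of 0.11, −0.13 and 0.13. Gpx1, the cytosolic enzyme, had 11154, 12489, 7427 and 16546 counts and a log2 fold of −0.23 in sFD17, and Gpx7 16, 10, 12 and 50 counts and 1.20 in FR17, the 1 gene of that list past 2-fold.

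Other fibroblast and mesenchyme lists were read in the same way. Some medians near 0 changed sign under another scaling of the libraries. With sFD17 these were the matrix, activated fibroblast, endothelial, airway, platelet and lymphocyte lists, with FR17 the Wnt ligand, neutrophil and melanoma lists, and with TP5 the Wnt target and glutathione peroxidase lists. The matrix list of 14 genes (fibrillar and type VI collagens, Fbn1, Eln, Sparc and others) was below 0 in TP5 for 14 of 14 genes, with 0 at least 2-fold lower and a median of −0.73. In sFD17 its median was −0.02, with 7 of 14 below 0, and in FR17 0.14. Its summed level was 0.617 (0.593 to 0.641) of control with TP5, 0.955 (0.920 to 0.991) with sFD17 and 1.15 (1.12 to 1.19) with FR17. In sFD17 the sum of the 10 genes thus stood at 0.572 of control beside 0.955 for the matrix list. Fbn1, fibrillin, had 149, 84, 123 and 177 counts and Col6a2, a collagen chain, 241, 136, 177 and 368, both with −0.88 in TP5.

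Of 10 alveolar fibroblast genes 6 were compared, and 1 was at least 2-fold lower in TP5 and 1 in sFD17, with medians of −0.34, −0.08 and 0.15 in TP5, sFD17 and FR17. The summed level of this list was 0.848, 1.06 and 0.957 of control, on the other side of control from the median in sFD17 and FR17. Limch1, an actin-binding protein, had 117, 57, 57 and 189 counts (−1.09 in TP5), and Mamdc2 107, 94, 34 and 164 (−1.30 in sFD17). All 11 adventitial fibroblast genes were compared, with 3 at least 2-fold lower in TP5, 0 in the others, and medians of −0.57, −0.33 and 0.25. Their summed level was 0.905, 0.977 and 0.782 (0.759 to 0.807) of control, the last opposite in sign to its median, and Pi16, with 6390, 5990, 5091 and 5951 counts, made up most of it. Cygb, cytoglobin, had 92, 33, 56 and 131 counts (−1.53 in TP5), and Fbln1, fibulin, 165, 75, 89 and 194 (−1.19). Of 13 transcription factors of lung mesenchyme 10 were compared, 3 at least 2-fold lower in TP5 and 3 in sFD17, with medians of −0.60, −0.13 and 0.40. Foxf1 had 117, 51, 92 and 211 counts, with log2 folds of −1.25 (−1.76 to −0.77) for TP5 and 0.01 (−0.40 to 0.42) for sFD17, and Tbx2 97, 61, 66 and 174 (−0.72 in TP5). Pericyte and smooth muscle genes, 10 compared of 12, were all below 0 in TP5, 4 of them at least 2-fold lower, with medians of −0.83, −0.09 and 0.49 and summed levels of 0.670, 1.15 and 1.40 of control, which in sFD17 lies opposite to the median. Actg2, a smooth muscle actin, had 38, 18, 41 and 78 counts (−1.13 in TP5), and Cnn1, calponin, 56, 47, 44 and 159 (1.06 in FR17).

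Genes of activated fibroblasts, some of them measured in lung tissue by the study, lay on either side of 0. Of 9 listed 7 were compared, with 0 at least 2-fold lower and 1 higher with TP5, 1 and 2 with sFD17 and 0 and 0 with FR17. The medians were −0.38, 0.20 and 0.05, while the summed level, most of it from Fn1, was 0.690, 0.433 and 0.742 of control. Vcan, the proteoglycan versican, had 37 counts in control, 96 with TP5, 106 with sFD17 and 90 with FR17, and was the list's highest at 1.32 (0.76 to 1.91), 1.87 (1.32 to 2.46) and 0.84 (0.27 to 1.43). Fap, a surface protease, had 25, 20, 61 and 21 counts (1.64 in sFD17). Fn1, fibronectin, had 17225, 12074, 5014 and 16783 counts, with −0.57 (−0.60 to −0.53) in TP5, −1.42 (−1.47 to −1.38) in sFD17 and −0.48 (−0.51 to −0.45) in FR17; macrophages also express it. Acta2, smooth muscle actin, had 1098, 971, 985 and 1558 counts, with log2 folds of −0.23, 0.20 and 0.06. Postn, periostin, had 89, 69, 58 and 163 counts (−0.42, −0.26 and 0.43), and Lox, lysyl oxidase, 59, 42, 26 and 83 (−0.54, −0.83 and 0.05).

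Wnt2 was then read within each library against the other 9 genes, a ratio that does not depend on the scaling between libraries. There were 31.7 Wnt2 counts per 1000 counts of the other 9 in control (24.2 to 40.8), 5.74 with TP5 (2.10 to 12.5), 2.22 with sFD17 (0.268 to 8.04) and 23.2 with FR17 (18.2 to 29.2). TP5 and sFD17 were low and did not overlap control or FR17. Relative to control the log2 ratio was −2.46 (−3.97 to −1.25) with TP5, −3.83 (−6.91 to −1.91) with sFD17 and −0.45 (−0.96 to 0.07) with FR17. Per 1000 counts of the matrix list, Wnt2 was at 9.55, 1.44, 0.413 and 7.27 in control, TP5, sFD17 and FR17. With TP5 and sFD17, Wnt2 was thus low relative to the other 9 genes and to the matrix list too. Which cells supplied the Wnt2 reads was not tested, and bulk counts do not tell this. Since Wnt2 was selected on its low level in TP5 and sFD17, these values are given without a test.

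**Figure D3:**
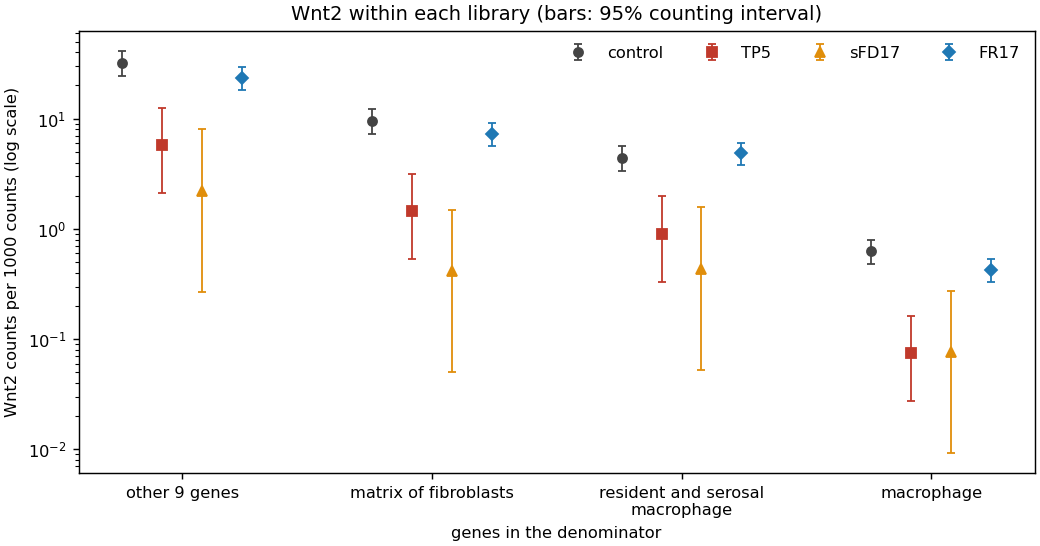
Wnt2 counts per 1000 counts of the other 9 genes, the matrix list, the resident and serosal macrophage list and the macrophage list (x axis), on a log axis, with 1 point per library and 95% intervals of counting. With each denominator TP5 and sFD17 lie below control and FR17, for example 5.74 and 2.22 against 31.7 and 23.2 for the other 9 genes.

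The genes most like Wnt2 over the 4 libraries were then listed. Likeness was the Euclidean distance over the 3 log2 folds against control, among 11987 other genes with at least 50 counts in 1 library. Of these 3 folds, those with TP5 and sFD17 are the values Wnt2 was chosen by, the latter at the floor, so genes with smaller differences could not lie near. The 5 nearest were Prg4 at 0.964, Tgfb2 at 1.15, Cd209f at 1.40, Fcna at 1.42 and Mb21d2 at 1.48. Prg4, which encodes lubricin, had 3226 counts in control, 550 with TP5, 177 with sFD17 and 2764 with FR17, with log2 folds of −2.61, −3.83 and −0.67. Tgfb2, a ligand of the TGF-β family, had 190, 39, 11 and 189 counts, with −2.34, −3.75 and −0.45. Cd209f, a C-type lectin, had 749, 139, 64 and 1389 counts, with −2.48, −3.19 and 0.45. Fcna, the lectin ficolin A of the complement system, had 1060, 253, 74 and 1420 counts, with −2.12, −3.48 and −0.02. Mb21d2 had 55, 12, 5 and 64 counts, with −2.25, −3.10 and −0.22. With at least 200 counts in 1 library, a minimum set after seeing the data, the nearest were Prg4, Cd209f, Fcna, Pla2g2d and C4b. No shared function or control follows from such a distance.

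Of the other members, 7 had the 50 counts needed to be ranked, and Tcf21 and Lum did not. None of the 7 was among the 100 genes nearest to Wnt2, the nearest was Dcn at place 196, the median place was 462 and the farthest was Pdgfrb at place 3021. These places follow from the choice of Wnt2 for its low values and are no test of the set's label. The summed counts of the other 9 genes were nearest to H2-Q1 (37, 19, 17 and 63 counts), Snupn, Cela1, Uaca and Limch1, with the fibroblast genes Serpinh1 and Dpt at places 7 and 8. This second ranking was added after the values had been seen.

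Prg4, Tgfb2 and Fcna are known from macrophages of the peritoneal and pleural cavities, and a list of 16 genes of resident and serosal macrophages was written after the values had been seen, with Prg4, Tgfb2, Cd209f and Fcna in it. It is therefore a description. In TP5, 13 of the 16 were at least 2-fold lower and 15 below 0, in sFD17 12 and 14, and in FR17 1 and 13, with medians of −1.56, −2.38 and −0.35. Of all genes compared, 6.01%, 6.83% and 4.54% were at least 2-fold lower, and the count in FR17 is near that share. In that list 12 of 16 genes were among the 100 nearest to Wnt2 of 11987 genes, with a median place of 32. Gata6, the transcription factor that marks cavity macrophages, had 57 counts in control, 25 with TP5, 12 with sFD17 and 69 with FR17, with log2 folds of −1.24 (−1.98 to −0.54), −1.89 (−2.93 to −0.98) and −0.17 (−0.69 to 0.37). Per 1000 counts of this list, Wnt2 was at 4.37, 0.907, 0.433 and 4.83 in control, TP5, sFD17 and FR17. The interval of FR17 against control held 0 on this ratio, with a log2 of 0.14 (−0.36 to 0.66), while TP5 at −2.27 (−3.77 to −1.06) and sFD17 at −3.33 (−6.41 to −1.42) were lower. F5 and F10, which stand in this list, were not 2-fold lower with any peptide. They had 2378, 2227, 2106 and 2250 and 1136, 1330, 985 and 1519 counts. The list summed to 14191 counts in control, 6615 with TP5 and 4614 with sFD17. F5 and F10 thus weighed more in TP5 and sFD17, where these ratios overstate how far Wnt2 lay below the rest. The ratio without them was not computed. The part of resident and serosal macrophages in the level of Wnt2 was not tested.

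**Figure D4:**
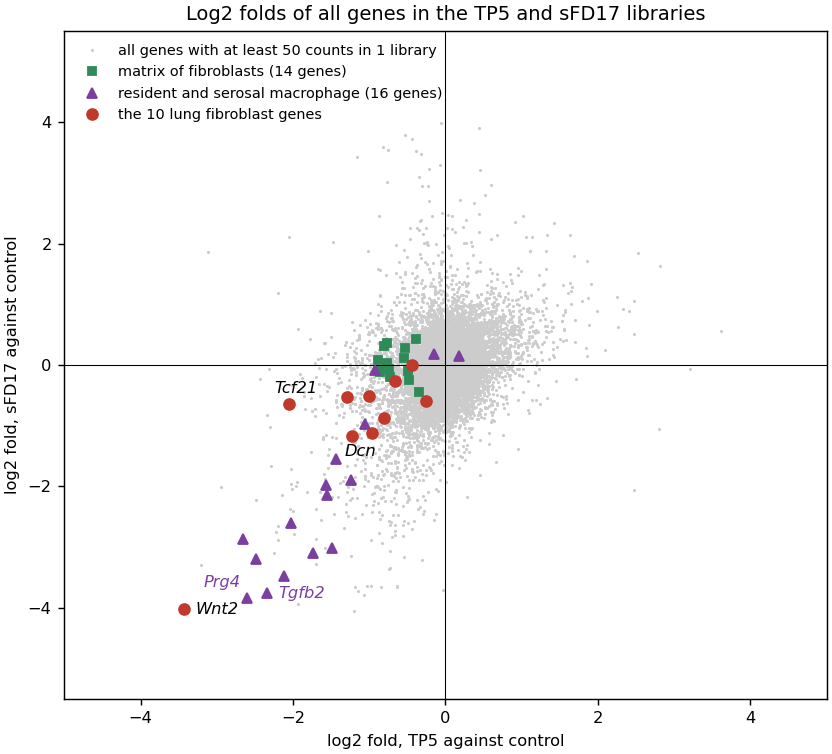
Log2 fold in TP5 (x axis) and in sFD17 (y axis) against the same control library, with 1 point per gene; gray, genes with at least 50 counts in 1 library; colors, the 10 genes, the matrix list and the resident and serosal macrophage list. Wnt2, at −3.42 and with the floor −4.01, lies beside Prg4 and Tgfb2, the other 9 genes lie nearer to 0, and the matrix genes lie to the left of 0 near the horizontal line.

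Markers of other cell types also differed between the libraries, and their part in the results above was not tested. The 12 macrophage markers had summed levels of 0.781 of control with TP5, 0.338 with sFD17 and 1.29 with FR17, with 3, 9 and 0 at least 2-fold lower and medians of −0.71, −1.58 and 0.22. Mrc1, the mannose receptor, had 8819, 5852, 1652 and 14180 counts (−2.06 in sFD17), and Cd5l, which stands in both macrophage lists, 748, 232, 68 and 799 (−3.10 in sFD17). Per 1000 counts of this list, Wnt2 was at 0.624, 0.0744, 0.0762 and 0.423, and the log2 ratio of FR17 to control, −0.56 (−1.07 to −0.05), had an interval below 0. The 12 endothelial markers stood at 0.817, 1.06 and 1.31 of control, with 4, 0 and 0 at least 2-fold lower and medians of −0.80, 0.03 and 0.44. Per endothelial counts the log2 ratio of Wnt2 in FR17 to control was −0.58 (−1.09 to −0.07). Cdh5 and Tie1, at −1.30 and −1.24 in TP5, had 402, 170, 346 and 612 and 202, 89, 149 and 319 counts. Mesothelial markers, 6 compared of 7, stood at 0.629, 0.256 and 1.64 of control with medians of −0.81, −1.12 and 0.73. Krt19, also an epithelial keratin, made up 90.0% of the control counts of this list, at 692, 458, 110 and 1541. Without it the sum was 0.550 (0.371 to 0.807), 0.731 (0.493 to 1.07) and 1.66 (1.26 to 2.20) of control, on 77, 44, 44 and 174 counts. At least 2-fold lower were 2 mesothelial genes with TP5, 3 with sFD17 and 0 with FR17, and 1, 1 and 2 were at least 2-fold higher. The defining member Wt1 was at 0, 0, 3 and 3 counts and Upk3b at 22, 10, 2 and 50, while Upk1b, at 4, 13, 11 and 18 counts, was above control in all 3 (1.65, 1.82 and 1.73).

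The 12 neutrophil markers stood at 1.10, 1.31 and 0.898 of control in TP5, sFD17 and FR17, with medians of 0.16, 0.45 and −0.05. Csf3r, at 83644, 62645, 78491 and 55305 counts, was the 1 neutrophil marker past 2-fold, at −1.04 in FR17, and Camp, at 13348, 25703, 14744 and 26153, had 0.89 in TP5. Alveolar type 2 markers were at 1.28, 1.34 and 1.14 of control with medians of 0.32, 0.40 and 0.16. Of these 8 genes, 2 were at least 2-fold lower in TP5 (Lamp3 and Slc34a2), 1 lower and 1 higher in sFD17 (Lamp3 and Sftpb), and 0 in FR17. Slc34a2 had 60, 29, 40 and 56 counts, Sftpb 205, 263, 322 and 316, and Lamp3 18, 6, 7 and 29. Sftpc, surfactant protein C and a defining marker of these cells, had 487, 299, 239 and 970 counts, with −0.76 (−0.97 to −0.55), −0.67 (−0.90 to −0.44) and 0.55 (0.39 to 0.71), in TP5 and sFD17 opposite to the sum. Napsa, at 1869, 2891, 2183 and 2734 counts, was the largest part of that sum, which without Napsa was 1.08, 1.20 and 1.20 of control. Airway and alveolar type 1 markers were at 1.52, 2.09 and 1.18 with medians of 0.30, 0.31 and 0.06, led by Scgb1a1 (9541, 15350, 16131 and 15455 counts), and Scgb3a2 had 446, 709, 642 and 766. Platelet markers were at 0.415, 0.285 and 1.28, a sum set by Pf4 (1733, 653, 247 and 2954 counts), while the medians of 0.19, 0.24 and 0.99 had the opposite sign to the sum in TP5 and sFD17. Itga2b, the platelet integrin chain, had 121, 130, 112 and 236 counts. Red blood cell markers were at 0.465, 0.595 and 1.56 with medians of −1.42, −0.69 and 0.56, with 136, 85, 42 and 270 counts for Hba-a1 and 31, 12, 15 and 78 for Hbb-bt. Lymphocyte markers were at 1.46, 0.995 and 1.52 with medians of 0.44, 0.11 and 0.54, of which the sum and the median with sFD17 lay on opposite sides of control, with 31, 37, 25 and 153 counts for Cd3e and 398, 192, 93 and 760 for Cd4. Of 6 melanoma genes Pmel alone was compared, at 20, 38, 28 and 26 counts, while Tyr and Tyrp1 were at 0 in all libraries.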

How the data were processed

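The mRNA of sorted lung CD11b+Ly6g+ cells was measured in 4 libraries, 1 each for control, TP5, sFD17 and FR17. According to the methods of the study, TRIzol was used for RNA and the NEBNext Ultra Directional kit for libraries. The deposited values are raw counts of reads on each gene, not normalized by the authors, beside the coordinates of the gene. The submitters' processing notes name HISAT2 2.0.5, StringTie 1.3.3b, featureCounts 1.5.0-p3, edgeR 3.18.1 and GRCm38.p6. Whether the counting used strand is not given in the sources used here. GENCODE M21 holds 54409 of the identifiers, and from it exon overlaps were taken. The table has 0 unmapped sample columns, and for the 100 symbols on several rows the row of highest summed counts was kept.

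Counts were scaled with TMM factors from edgeR 4.0.16 in R 4.3.3. Other steps used Python 3.11.15, pandas 2.3.3, numpy 2.4.6, scipy 1.17.1 and matplotlib 3.10.9. Genes with at least 10 counts in 1 library were compared. A log2 fold is the ratio of scaled counts with the exact (Clopper-Pearson) 95% interval of the pair of counts; for ranks and calls a library under 3 counts was set to 3, and genes with neither library above 3 were left out. No test was run, because 1 library per group leaves no residual degrees of freedom. The folds and intervals were tried on simulated Poisson counts, the counting error that the intervals assume. The genes scored there had expected counts well above those of Wnt2 with TP5 and sFD17. Counts that low or at the floor were therefore not covered, nor was the spread between mice.

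The 10 genes and the 23 gene lists were chosen with earlier results of these data known, and 1 list, of resident and serosal macrophages, after the values were seen. Named genes are the 10, in each list the 2 with the largest log2 fold among those with at least 50 counts in 1 library, the 5 nearest to Wnt2, and Acta2, Fn1, Lox, Postn and Vcan, which the study measured. Genes named beyond this rule (Wnt3, Wnt3a, Wnt7a, Kera, Epyc, Pi16, Eln, Sparc, Gata6, Wt1, Pmel, Tyr, Tyrp1, S100a8, S100a9, Ly6g, Mapk7, Pla2g2d, C4b, Upk1b, Sftpc, Lamp3, Napsa, Tcf7, F5, F10 and those near the sum of the other 9) were added after their values were seen. Alternatives were DESeq2 1.42.0 size factors, library size alone, scaling to the neutrophil markers, a prior count of 2, other filters, folds of 1.5 and 4, and other denominators for Wnt2.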

Additional observations from a re-analysis of the deposited data

How the results depend on the processing

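No paired analysis was possible because each group has 1 library. The number of members at least 2-fold lower in TP5, 5, was 8 at 1.5-fold, 2 at 4-fold, and 3 with at least 10 counts in every library, which leaves out Wnt2 and Tcf21. It was 4 under library size alone and 4 with a prior count of 2, where Inmt was at −0.953 and −0.998. When scaled to the neutrophil markers it was 6. In sFD17 this number was 3, and 6 at 1.5-fold, 1 at 4-fold and 5 when scaled to the neutrophil markers. Of all genes, those at least 2-fold lower and higher with at least 10 counts in every library were 368 and 208 with TP5, 534 and 457 with sFD17 and 343 and 199 with FR17, from fewer genes compared. Under library size alone they were 1714 and 668 in sFD17 and 421 and 1326 in FR17, in sFD17 2525 and 481 when scaled to the neutrophil markers, and in FR17 1221 were lower with no filter. Each fold of the 10 genes stayed within its counting interval under DESeq2's size factors and a prior count of 2, 27 of 30 under library size alone and 26 of 30 when scaled to the neutrophil markers. No member called at 2-fold changed sign in these 4 settings, while other values near 0 did: Wnt2, Pdgfra, Pdgfrb, Lum and Mfap4 in FR17 under library size alone, Pdgfra and Lum there when scaled to the neutrophil markers, and Pdgfrb in sFD17 under DESeq2's size factors. The log2 ratio of Wnt2 to its denominator in FR17, −0.45 with the other 9 genes, was 0.14 with the resident and serosal macrophage list, −0.56 with the macrophage list and −0.58 with the endothelium list, the 3 chosen after seeing the data. The intervals of the last 2 lay below 0, and those of the others held 0. Over these and the planned denominators it ran from −3.13 to −2.27 in TP5 and from −4.69 to −3.03 in sFD17.

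In the sFD17 library Wnt2 rests on 2 counts, which limits its log2 fold to an interval of −7.68 to −2.68. Leaving out a library was not run, since each group has 1.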
